A study of Homo sapiens with 18 samples.

Results

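The genes examined here encode the human DNA methyltransferases, the TET enzymes and the factors most closely tied to them. The 10 members, DNMT1, DNMT3A, DNMT3B, DNMT3L, TET1, TET2, TET3, UHRF1, UHRF2 and TDG, were chosen by name out of 57133 genes in the count table. All 10 passed a filter on low counts that left 17672 genes. DNMT3L passed it only through its counts in the knockout libraries. RNA-seq was carried out on PGP1, a human induced pluripotent stem cell line, before and after knockout of PCGF6, a Polycomb group RING finger protein of the variant Polycomb repressive complex PRC1.6. Unedited wild-type (WT) cells were compared with PCGF6-KO clone 1 and PCGF6-KO clone 2, which carry CRISPR-Cas9 deletions in the first exon of PCGF6, and each of these groups had 2 libraries. All cells were grown in mTeSR1 medium on Matrigel. Each knockout is a single clone, so an effect of the deletion and a trait of the clone cannot be told apart within a clone. The labels do not say whether the replicates came from separate cultures. The p-values therefore measure only the spread between libraries, and that between libraries of WT or of the same clone may be technical. The pooled PCGF6-KO test took the libraries of both clones together, so its spread includes the difference between the clones. It also counted libraries of the same clone as independent replicates.

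Methylation of cytosine in CpG dinucleotides is written by DNMT3A and DNMT3B, the de novo methyltransferases, with DNMT3L as a cofactor that has no catalytic activity of its own. At replication the marks are copied to the new strand by DNMT1, which UHRF1 guides to hemimethylated DNA. The TET enzymes oxidise 5-methylcytosine, and TDG excises the later oxidation products so that base excision repair can restore cytosine. Primed human pluripotent stem cells are known for high DNMT3B, and TET1 is the TET enzyme usually linked to the pluripotent state.

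The libraries held between 15877396 and 18918609 counts. Replicates differed by more than counting error, with a chi-square per degree of freedom of 2.40 for WT, 4.50 for clone 1 and 3.20 for clone 2. PCGF6 itself gave 268 and 300 counts in WT, 99 and 103 for clone 1, and 187 and 159 for clone 2. PCGF6 was lower in every knockout library, and the log2 fold change was −1.67 for clone 1 and −0.77 for clone 2 (adjusted p = 1.0e-10 and 1.2e-05). The pooled log2 fold change of PCGF6 was −1.15 (adjusted p = 0.00914), and the adjusted p was 0.0511 without WT replicate 1 and 0.0763 without WT replicate 2. Reads outside the deleted stretch still count toward the gene, so these values check the labels only in part. The p-values here and below come from edgeR's quasi-likelihood test over all 17672 genes with Benjamini-Hochberg adjustment.

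Genes of other cell types also moved with the genotype. Of 13 mesendoderm markers, 12 were tested and called as higher in PCGF6-KO cells, but several are at or near 0 in WT and passed the filter only through the knockout libraries, where they are high. When every library needed at least 10 counts, 4 were called as higher. The summed level of the 13 markers, in CPM (counts scaled to the size of the library), was 19.1 to 19.6 for WT, about 816 in both clone 1 libraries and 1074 to 1083 for clone 2. SOX17, HAND1 and MESP1 had no counts in WT. HAND1, a mesodermal factor, reached 672 and 770 counts in clone 1 and 2012 and 1575 for clone 2. EOMES, a mesendodermal factor, had 3 and 5 counts in WT against 2630 and 2528 for clone 1 and 1615 and 1647 for clone 2. The summed CPM of 12 pluripotent stem cell markers was 9397 to 9811 for WT, 8623 to 8780 for clone 1 and 8158 to 8458 for clone 2. POU5F1, which encodes OCT4, differed by 0.01 on the log2 scale (adjusted p = 0.907), and NANOG by 0.40 (adjusted p = 0.0139), under the threshold of 0.6 used for calls. The part of the mesendoderm and other marker genes in the results below was not tested, and in bulk RNA fewer cells that express a gene and less RNA per cell cannot be told apart.

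In PCGF6-KO cells DNMT3B fell and DNMT3L rose, and the other 8 genes did not pass the thresholds. DNMT3L entered the test only through the knockout libraries, where it is high, so its call is not independent of the filter. With at least 10 counts in every library, 1 member was called. A gene was called at an adjusted p under 0.05 with an absolute log2 fold change over 0.6. By this rule 2 of 10 members were called in PCGF6-KO against WT, where 23.6% of all tested genes were called, 14.9% as higher and 8.70% as lower. The same 2 members were called in clone 1 against WT (24.8% of all genes, 16.0% as higher and 8.80% as lower) and in clone 2 against WT (29.4%, with 16.9% higher and 12.5% lower), and both comparisons share the WT libraries. No member was called between the clones, where 7.87% of all genes were called (3.73% higher, 4.14% lower) and 2 members had an adjusted p under 0.05. At an adjusted p under 0.05 without a fold threshold, 5 members stood out in PCGF6-KO against WT, namely DNMT3L and TET1 as higher and DNMT3B, DNMT3A and TET3 as lower. The share of all genes past that threshold was 37.1%. The 4 knockout libraries lay wholly above both WT libraries for 3 members and wholly below for 5, and 57.1% of all tested genes separated in this way. A share of 2 in 10 is therefore close to that of all genes.

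**Figure D1:**
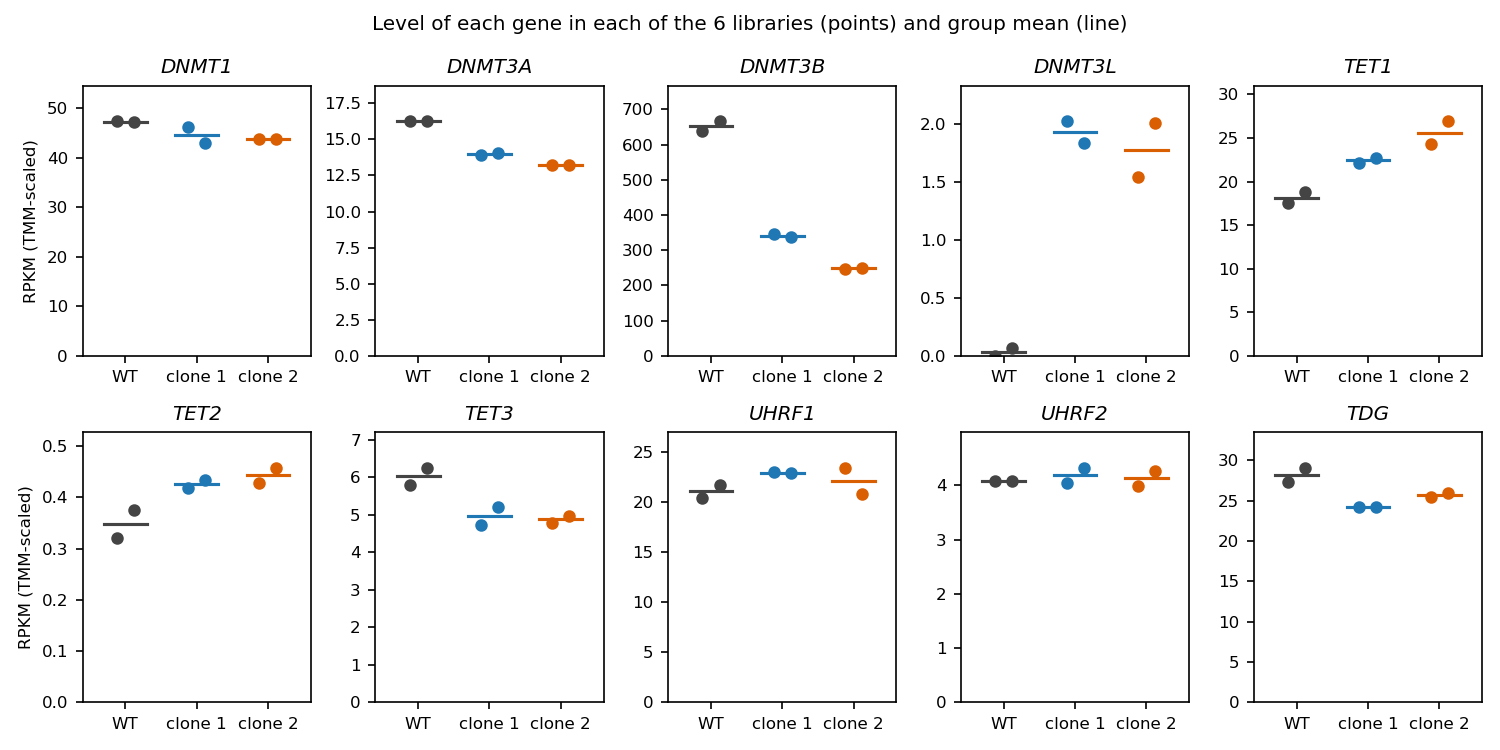
Level of each of the 10 genes in every library, in RPKM (counts scaled to gene length and library size) on axes that start at 0, with WT, clone 1 and clone 2 side by side. DNMT3B falls from 638 and 666 for WT to 248 and 250 for clone 2, and DNMT3L goes from 0 and 0.0645 for WT to between 1.54 and 2.03 in the knockout libraries.

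Levels were compared between genes in RPKM, which corrects for the gene length deposited with the counts. In WT cells DNMT3B was by far the highest at 652 ± 19.8 RPKM (mean ± SD, n = 2), which placed it 21st among the tested genes. DNMT1 followed at 47.2 ± 0.149 RPKM. TDG stood at 28.2 ± 1.29, UHRF1 at 21.1 ± 0.893, TET1 at 18.2 ± 0.909 and DNMT3A at 16.3 RPKM. Lower still were TET3 at 6.03 ± 0.325 and UHRF2 at 4.08 ± 0.00583 RPKM. TET2 lay at 0.348 ± 0.0382 RPKM, below the median of all tested genes (2.98), and DNMT3L was at the bottom with 0.0322 ± 0.0456. No neighbours in this order overlapped in their WT libraries. That order rests on the lengths used. In CPM the WT means of the middle genes ran the other way, at 195 for DNMT3A, 169 for TET1, 138 for TDG and 108 for UHRF1. The order among the middle genes was not kept, since in clone 2 TET1 (24.3 and 26.9 RPKM) spanned the values of TDG (25.5 and 25.9).

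Of the de novo methyltransferases, DNMT3B (chr20:32762385-32809359, plus strand, GRCh38) carried the largest fall in absolute terms. It gave 48123 and 51479 counts in WT, 30682 and 28311 for clone 1, and 20832 and 18592 for clone 2. The groups did not overlap, with WT highest, clone 1 between and clone 2 lowest. In RPKM the 4 knockout libraries averaged 295 ± 53.4 (n = 4 libraries, 2 from each of 2 clones). That SD includes the difference between the clones, which averaged 341 for clone 1 and 249 for clone 2. The log2 fold change was −1.14 (SE 0.14, 95% interval −1.46 to −0.83, adjusted p = 0.000250), a level 2.21-fold lower than in WT. Against WT, clone 1 gave −0.93 (adjusted p = 8.8e-15) and clone 2 gave −1.39 (adjusted p = 1.8e-18). DNMT3B took 0.303% and 0.315% of all counts in the WT libraries, 0.162% and 0.158% for clone 1, and 0.111% in each clone 2 library. By RPKM it ranked 46th in clone 1 and 97th in clone 2, so it stayed among the most abundant transcripts while falling.

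DNMT3L (chr21:44246339-44262216, minus strand), the catalytically inactive cofactor of the de novo enzymes, went the other way from almost nothing. Reads assigned to it numbered 0 and 2 for WT, 72 and 62 for clone 1, and 52 and 60 for clone 2. Every knockout library was above both WT libraries, and on the RPKM scale the clones overlapped (2.03 and 1.83 against 1.54 and 2.01). The ratio of summed DNMT3L counts, scaled to library size, was 56.7 with a 95% interval from 15.5 to 471, which covers counting error only. The same ratio was 59.2 (16.1 to 494) for clone 1 and 54.0 (14.6 to 452) for clone 2. The adjusted p for PCGF6-KO against WT was 6.0e-05, for a gene that passed the filter only through its knockout counts. The size of the DNMT3L difference depends on the WT library used, since the fitted log2 fold change, which rests on a prior count and is no bound, was 5.67 with both, 4.76 without WT replicate 1 and 8.92 without WT replicate 2. The level reached remained low, at 1.93 RPKM in clone 1 and 1.78 RPKM in clone 2, under the median of all tested genes there (3.21 in both clones). An exon of the antisense gene DNMT3L-AS1 overlaps DNMT3L, and as the strand setting of the counting was not given in the sources used here, reads of the overlap cannot be told apart.

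DNMT3A (chr2:25227855-25342590, minus strand), the other de novo methyltransferase, differed little. It stood at 16.3 RPKM in both WT libraries, 13.9 and 14.1 for clone 1, and 13.2 in both clone 2 libraries. All knockout libraries lay below WT, but the log2 fold change of −0.26 (SE 0.06, adjusted p = 0.00812) was under the fold threshold. The adjusted p became 0.0776 and 0.0831 when the WT libraries were left out in turn. DNMT3B exceeded DNMT3A by 39.3 and 41.0 times in WT, 24.9 and 23.9 times in clone 1, and 18.7 and 19.0 times in clone 2, on the RPKM scale.

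The maintenance genes gave no difference past the threshold. DNMT1 (chr19:10133342-10231286, minus strand), the maintenance methyltransferase, was at 47.3 and 47.1 RPKM in WT, 46.2 and 42.9 for clone 1, and 43.7 and 43.6 for clone 2. Its knockout values were all a little lower, with a log2 fold change of −0.10 (95% interval −0.23 to 0.03, adjusted p = 0.209). DNMT1 shares exon sequence with S1PR2 on the same strand. UHRF1 (chr19:4903080-4962154, plus strand), which brings DNMT1 to hemimethylated sites, had 20.4 and 21.7 RPKM in WT, 23.0 and 22.9 for clone 1, and 23.4 and 20.8 for clone 2. WT and clone 2 overlapped for UHRF1, and the log2 fold change was 0.10 (95% interval −0.06 to 0.26, adjusted p = 0.323). Its paralog UHRF2 (chr9:6413151-6507054, plus strand) ranged from 4.00 to 4.33 RPKM over the 6 libraries, with WT inside that range, and gave 0.03 (adjusted p = 0.794).

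The fall of DNMT3B changed the makeup of the methyltransferase transcripts. The summed RPKM of DNMT1, DNMT3A and DNMT3B together with DNMT3L was 702 and 730 for WT, 409 and 395 for clone 1, and 307 and 309 for clone 2. DNMT3B made up 90.9% and 91.3% of that sum in WT, 84.8% and 85.1% for clone 1, and 80.9% and 81.0% for clone 2. The share of DNMT1 was 6.74% and 6.46% for WT against 14.3% and 14.1% for clone 2. DNMT3B thus remained the dominant methyltransferase transcript in every library.

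**Figure D2:**
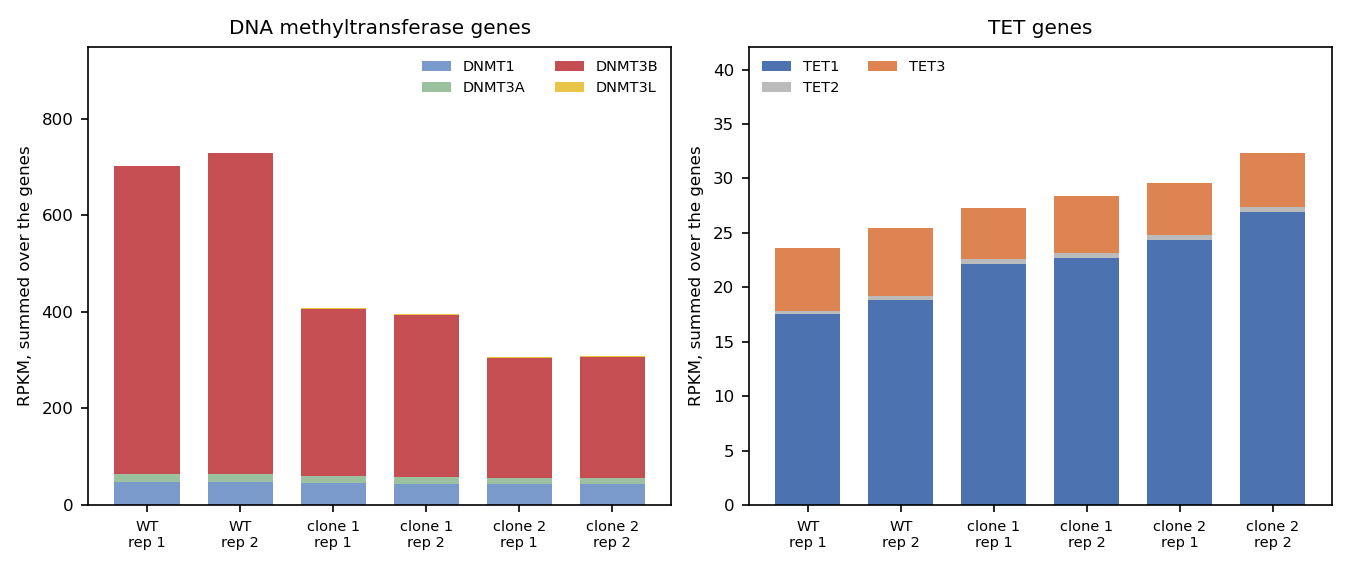
Summed levels of the DNA methyltransferase genes and of the TET genes in each of the 6 libraries, in RPKM, stacked by gene on axes from 0. The methyltransferase sum falls from 702 and 730 for WT to 307 and 309 for clone 2, mostly through DNMT3B, while the TET sum goes from 23.6 and 25.4 to 29.6 and 32.4, mostly through TET1.

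Among the erasers, TET1 and TET3 differed from WT in opposite directions, and both by less than the fold threshold. The 250 bases before the most upstream RefSeq start of each gene are printed because these stretches differ in CpG, though the enzymes have the same role. They come from RefSeq (GRCh38.p14), both on the plus strand, with CpG dinucleotides, the substrate of these enzymes, in capitals. The TET1 window is chr10:68560087-68560336 and the TET3 window is chr2:73984660-73984909.
TET1: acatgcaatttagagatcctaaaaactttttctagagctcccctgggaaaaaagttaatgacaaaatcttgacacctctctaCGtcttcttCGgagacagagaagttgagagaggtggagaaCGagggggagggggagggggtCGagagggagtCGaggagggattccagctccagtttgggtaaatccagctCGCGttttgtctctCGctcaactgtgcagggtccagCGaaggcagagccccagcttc
TET3: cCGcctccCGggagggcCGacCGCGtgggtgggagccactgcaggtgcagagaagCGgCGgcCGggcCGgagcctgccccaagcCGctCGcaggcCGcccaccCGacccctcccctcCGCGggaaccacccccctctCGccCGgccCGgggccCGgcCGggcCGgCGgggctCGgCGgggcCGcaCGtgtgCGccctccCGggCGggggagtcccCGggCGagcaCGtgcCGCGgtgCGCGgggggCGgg
The TET1 window holds 9 CpG at 51.6% GC, and the TET3 window 37 CpG at 84.0% GC. Windows at further RefSeq starts hold 4 and 11 CpG for TET1 and 27 for TET3. Which start these cells use was not tested. Over 35116 promoter windows of that length the median was 11 CpG, and 45.9% of them had fewer CpG than TET1 and 96.0% fewer than TET3. Both strands were searched for CACGTG, the E-box bound by MYC and MAX dimers, and GCGGGAA, a letter string of E2F sites, as MAX and E2F6 are subunits of PRC1.6. TET3 held CACGTG 2 times and GCGGGAA 1 time, and TET1 held neither. In the most upstream window of each other member, TET2 and TDG held CACGTG 1 time each and UHRF1 held GCGGGAA 2 times. DNMT3A held CACGTG 1 time in each of its windows chr2:25252316-25252565 and chr2:25252264-25252513, farther into the gene. The RefSeq starts used for DNMT1, DNMT3B and UHRF1 lie 36333, 17467 and 6421 bases into the gene positions given here. Those windows therefore do not cover the outermost start. Of all windows, 6.34% held CACGTG and 5.52% held GCGGGAA. These matches describe letters in a window and not binding. Windows were found for 9 of the 10 members, without DNMT3L.

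TET1 (chr10:68560337-68694487, plus strand) was the main TET transcript in all groups. It stood at 17.5 and 18.8 RPKM in WT, 22.2 and 22.7 for clone 1, and 24.3 and 26.9 for clone 2. The groups did not overlap, with clone 2 highest. The log2 fold change was 0.41 (SE 0.09, 95% interval 0.21 to 0.60, adjusted p = 0.00619), with 0.31 for clone 1 (adjusted p = 0.000262) and 0.50 for clone 2 (adjusted p = 2.4e-07). Without WT replicate 1 the adjusted p for PCGF6-KO against WT was 0.0865.

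TET3 (chr2:73984910-74108176, plus strand), a TET enzyme known from the oocyte and zygote, stood at 5.80 and 6.26 RPKM in WT, 4.72 and 5.21 for clone 1, and 4.79 and 4.98 for clone 2. Both clones lay below WT and overlapped each other. The log2 fold change of TET3 was −0.29 (SE 0.07, adjusted p = 0.0121), and the adjusted p was 0.150 without WT replicate 2. A long noncoding RNA on the same strand shares exon sequence with TET3.

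TET2 (chr4:105145875-105279816, plus strand), best known as a tumour suppressor of blood cells, was low throughout, with 86 and 103 counts in WT, 132 and 130 for clone 1, and 128 and 121 for clone 2. All knockout libraries exceeded WT, but the difference did not pass the test (log2 fold change 0.32, 95% interval −0.02 to 0.66, adjusted p = 0.126). In RPKM TET2 ranged from 0.321 to 0.458, far under TET1 and TET3.

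As a result the TET transcripts were spread differently. TET1 made up 74.1% and 73.9% of the summed TET RPKM in WT, 81.2% and 80.1% for clone 1, and 82.4% and 83.2% for clone 2. TET3 took 24.5% and 24.6% for WT and 16.2% and 15.4% for clone 2. The ratio of DNMT3B to TET1, a writer against an eraser, was 36.5 and 35.5 for WT, 15.6 and 14.8 for clone 1, and 10.2 and 9.29 for clone 2 in RPKM. This ratio describes transcripts, and DNA methylation was not analysed here.

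TDG (chr12:103965822-103988874, plus strand), the glycosylase that removes oxidised methylcytosine, was at 27.3 and 29.1 RPKM in WT, 24.2 in both clone 1 libraries, and 25.5 and 25.9 for clone 2. All knockout libraries lay below WT, but the log2 fold change of −0.17 missed the threshold (adjusted p = 0.0575). Clone 1 against WT gave −0.22 with an adjusted p of 0.00608, or 0.157 without WT replicate 2, and clone 2 gave −0.13 with 0.0839. With TDG, 6 members had an adjusted p under 0.05 for clone 1, where 45.3% of all genes did, and 5 for clone 2, where 50.4% did. A long noncoding RNA shares exon sequence with TDG on the same strand.

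**Figure D3:**
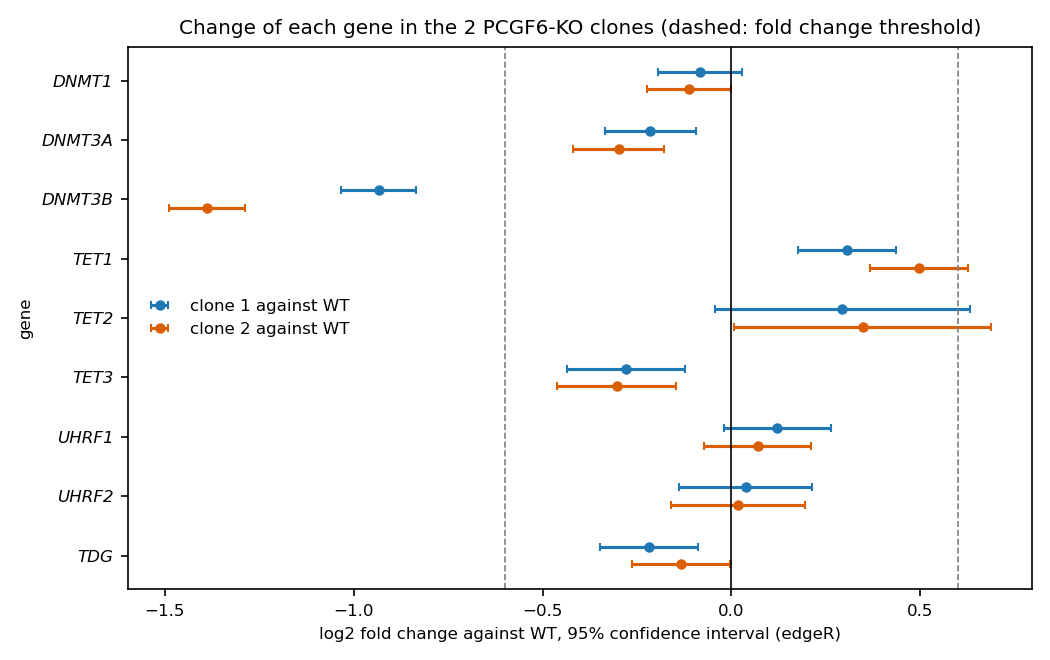
Log2 fold change of each clone against WT for 9 of the genes, with 95% intervals from the edgeR fit and the fold threshold of 0.6 drawn on both sides of 0. DNMT3L is left out because WT held 2 counts in all, and DNMT3B lies past the threshold in both clones, at −0.93 and −1.39.

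The clones differed from each other in degree for DNMT3B and TET1. DNMT3B was lower in clone 2 than in clone 1 by a log2 fold change of −0.45 (95% interval −0.55 to −0.36, adjusted p = 1.0e-07). TET1 was higher in clone 2 by 0.19 (95% interval 0.06 to 0.32, adjusted p = 0.0306), but its adjusted p was 0.365 without clone 2 replicate 2, 0.0829 without clone 1 replicate 1 and 0.0605 without WT replicate 2. Neither reached the fold threshold, and 19.5% of all genes had an adjusted p under 0.05 between the clones. DNMT3L gave −0.13, with an interval from −0.64 to 0.38 (adjusted p = 0.781), so a difference within that range is not excluded. For DNMT3B and TET1 clone 2 stood farther from WT, while PCGF6 counts were higher in clone 2 than in clone 1 (log2 fold change 0.90, adjusted p = 5.4e-05). Those PCGF6 counts include reads outside the deleted stretch and do not measure protein. The paper checked the knockout at the protein level by western blot. The summed mesendoderm markers were also higher in clone 2, and their part in the DNMT3B and TET1 values was not tested. Clone 1 and WT separated without overlap for 9 members (71.7% of all genes), clone 2 and WT for 8 (74.9%), and the clones from each other for 4 (55.5%).

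The genes whose log2 CPM followed DNMT3B and DNMT3L most closely were looked up among 10626 genes whose mean log2 CPM was at least 3, over 6 libraries that fall into 3 groups. For DNMT3B these were TCF7L1, a transcriptional repressor of the WNT pathway (Pearson r = 0.9995, log2 fold change −1.89), PCDH1 (r = 0.9990, −1.07) and CBLB (r = 0.9990, −0.48). For DNMT3L they were FILIP1 (r = 0.9998, log2 fold change 1.37), TNFRSF11B (r = 0.9992, 2.82) and HERC3 (r = 0.9978, 2.56). With 3 groups such values are a description, since any gene with the same order and spacing of the groups gives a high r.

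The wider methylation machinery was read from 6 lists, in which most genes were not called. The counts stand beside 14.9% of all tested genes called as higher and 8.70% as lower in PCGF6-KO against WT. Of 9 methyl-CpG binding proteins, 1 rose and 0 fell, and the median log2 fold change was 0.20, against 0.00 over all genes. The gene that rose was ZBTB38, a zinc finger protein that binds methylated CpG (log2 fold change 1.28, SE 0.08, adjusted p = 6.4e-06), from 394 and 409 counts in WT to between 1029 and 1108 in the knockout libraries. Of 17 partners of the DNA methyltransferases, 1 fell and 0 rose, with a median of −0.17. That was CDCA7L (−0.72, adjusted p = 7.8e-05), a paralog of CDCA7, whose product works with the remodeller HELLS. Among 13 partners of the TET enzymes and suppliers of their cofactors, 2 fell and 0 rose (median −0.15). These were QSER1 (−0.69, adjusted p = 0.000180), which protects regulatory DNA from de novo methylation together with TET1, and SLC23A2 (−0.72, adjusted p = 0.0100), a transporter of vitamin C. SLC23A2 had an adjusted p of 0.0992 without WT replicate 2.

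In the base excision repair list, which also holds the GADD45 genes, 2 of 15 genes rose and 1 fell, with a median log2 fold change of −0.12. Against WT, clone 1 alone had 2 higher and 1 lower, and clone 2 had 2 higher and 2 lower. Both genes that rose in the pooled comparison were GADD45 genes and not repair enzymes. GADD45B rose by 2.26 (adjusted p = 3.7e-05) and GADD45A by 1.55 (adjusted p = 0.00128). Both are stress-induced genes that have been tied to demethylation and also to growth arrest. NEIL1, a DNA glycosylase, fell by 0.74 on the log2 scale (adjusted p = 0.00485), with an adjusted p of 0.0728 without WT replicate 1. In the methionine and folate cycle, which supplies the methyl donor, 3 of 16 tested genes fell and 0 rose (median −0.23). Clone 1 alone had 4 lower and 0 higher, and clone 2 had 4 lower and 1 higher. Among them were BHMT (−1.94, adjusted p = 0.00451), at 45 and 44 counts in WT and 7 to 22 in the knockout libraries, and MAT2B (−0.61, adjusted p = 0.000750). MAT2B, a subunit of S-adenosylmethionine synthetase, lay at the fold threshold and was at −0.54 without clone 1 replicate 1. MTHFD1, an enzyme of the folate cycle named here after its values were seen, had 4650 and 4606 counts for WT, 598 and 579 for clone 1, and 3239 and 2698 for clone 2. MTHFD1 fell in both clones, by 3.15 on the log2 scale in clone 1 (adjusted p = 9.9e-23) and by 0.70 in clone 2 (adjusted p = 2.4e-10), and the clones differed by 2.46 (adjusted p = 3.8e-19). Pooled over the clones it was not called (−1.46, adjusted p = 0.108). Of 18 DNA replication genes, which tend to follow the share of dividing cells and which DNMT1 and UHRF1 accompany in S phase, 1 fell, MCM5 (−0.75, adjusted p = 0.000303), and the median was −0.22. Their summed CPM was 3701 to 3750 for WT, 2993 to 3162 for clone 1 and 3068 to 3116 for clone 2. This level moved with the genotype, and its part in the values of DNMT1 and UHRF1 was not tested. By propidium iodide staining and an MTT assay, the paper reported no effect of the knockout on cell cycle or proliferation, though colonies were smaller.

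**Figure D4:**
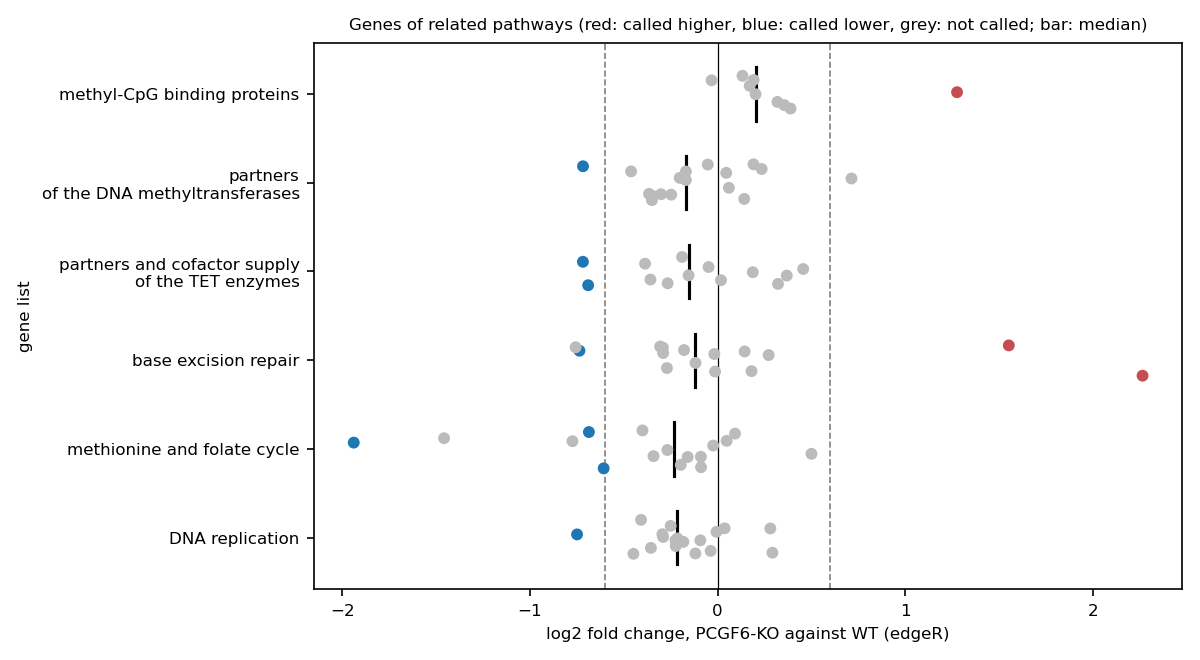
Log2 fold change in PCGF6-KO against WT of each tested gene in 6 lists related to DNA methylation, with called genes in red (higher) or blue (lower), other genes in grey and a bar at the median of each list. Medians lie between −0.23 for the methionine and folate cycle and 0.20 for methyl-CpG binding proteins, and GADD45B at 2.26 and BHMT at −1.94 are the extremes.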

How the data were processed

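Per the submitters' processing notes, the authors trimmed reads with Trim Galore 0.6.2, used HISAT2 2.1.0 to align them to GRCh38 and featureCounts to assign them to genes, and the deposited table holds raw counts of 57133 genes in 6 libraries. Which annotation release and strand setting were used, and how multi-mapped reads were treated, was not given in the sources used here. The ChIP-seq data were not analysed here.

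Genes were filtered with filterByExpr on WT against PCGF6-KO (minimum count 10), libraries were scaled by TMM, and edgeR 4.0.16 (limma 3.58.1, R 4.3.3) gave quasi-likelihood tests of the 4 PCGF6-KO against the 2 WT libraries and, in a fit with 3 groups, of each clone. A call needed p under 0.05 after Benjamini-Hochberg adjustment, with a log2 fold change past 0.6 in either direction. The SE is the absolute log2 fold change divided by the root of F. RPKM used the gene lengths deposited with the counts. The fitting was tested on simulated data. Genes outside the members were named when called with the largest changes in a list, at most 4 a list, or as defining markers, and the 3 genes with the highest r are given for each called member. The result of 1 gene that this rule names is not reported here. The members and lists were chosen with earlier results of these data known. Positions and overlaps came from GENCODE GRCh38 annotation. Results were also computed with DESeq2 1.42.0, with RLE or upper-quartile scaling, no filter or at least 10 counts in every library, adjusted p alone, the mean of the clones, only the compared groups, the replicate block, and leaving out each library.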

Additional observations from a re-analysis of the deposited data

Results flagged for a closer look

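The size of the difference from WT was not the same in the 2 clones for DNMT3B, TET1 and PCGF6, by edgeR's quasi-likelihood test of clone 2 against clone 1 with Benjamini-Hochberg adjustment over all tested genes. DNMT3B was lower in clone 2, with a log2 fold change of −0.45 (adjusted p = 1.0e-07). TET1 was higher in clone 2 by 0.19 (adjusted p = 0.0306), and its adjusted p ranged from 0.00179 to 0.365 over the alternatives. PCGF6 was higher in clone 2 by 0.90 (adjusted p = 5.4e-05). No cause of these differences was tested.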

How the results depend on the processing

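DNMT3B stayed lower and called in PCGF6-KO against WT under all 13 alternatives that gave it a value, from −1.22 to −1.06 on the log2 scale, and DNMT3L stayed higher and called under all 12. The number of members called, 2 against WT, became 5 (PCGF6-KO), 6 (clone 1) and 5 (clone 2) at an adjusted p alone, and 0 became 2 between the clones. It became 1, 1 and 1 when every library needed at least 10 counts, which removes DNMT3L. An adjusted p alone was passed by 37.1% of all genes in PCGF6-KO against WT. By that rule the lists gave 4 of 9 methyl-CpG binding proteins (4 higher, 0 lower) and 8 of 17 methyltransferase partners (1 higher, 7 lower). For TET partners it was 6 of 13 (1 higher, 5 lower), and for base excision repair 7 of 15 (2 higher, 5 lower). The methionine and folate list gave 6 of 16 (1 higher, 5 lower). Replication gave 11 of 18 genes (1 higher, 10 lower) and pluripotency 8 of 12 (3 higher, 5 lower). With at least 10 counts in every library, calls came to 1 in the methionine and folate, 4 in the mesendoderm, 3 in the neuroectoderm, 3 in the amnion and 1 in the naive list. The methionine and folate list gave 5 calls with no filter and 5 with the mean of the clones. With each library left out in turn, the members called stayed at 2 against WT, and the TET partner list gave 1 to 2 and the base excision repair list 2 to 4. Directions that turned were all of differences near 0. Leaving out libraries, clone 2 against clone 1 ran from −0.087 to 0.029 for DNMT1, −0.32 to 0.058 for DNMT3L, −0.092 to 0.042 for TET3, −0.14 to 0.031 for UHRF1 and −0.065 to 0.026 for UHRF2. Clone 2 against WT ran from −0.012 to 0.15 for UHRF1 and from −0.026 to 0.072 for UHRF2, and POU5F1 in PCGF6-KO against WT from −0.019 to 0.043. Upper-quartile scaling gave −0.0048 for UHRF2 in PCGF6-KO, −0.028 for UHRF2 in clone 2 against WT and −0.020 for POU5F1, and 0.0229 as the adjusted p of TDG. The cause was not tested. The median of all genes was 0.10 with no filter and within 0.03 of 0 otherwise. Replicate numbers did not pair the samples (deviations correlated at r = 0.04, 0.05 and 0.16 over 15104 genes), and with the replicate block 3876 genes were called instead of 4167, with 2 members called as before. TET1 kept its direction with each library left out, and its adjusted p reached at most 0.0169 in clone 1 and 3.3e-05 in clone 2 against WT, while that of the pooled comparison reached 0.0865. TET2 and DNMT3L rest on few counts.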

Other observations

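Of 10 naive pluripotency markers 5 could be tested in PCGF6-KO against WT, and 1 rose and 1 fell in the edgeR fit, with p-values adjusted by Benjamini-Hochberg. KLF5, a Krüppel-like factor, had 73 and 68 counts in WT, 813 and 793 for clone 1, and 1274 and 1212 for clone 2 (log2 fold change 3.76, adjusted p = 2.7e-05). DPPA3, a germline and early embryo factor known to bind UHRF1, had 28 and 25 counts in WT, 6 and 8 for clone 1, and 7 and 9 for clone 2 (log2 fold change −1.91, adjusted p = 0.00191). The 12 pluripotent stem cell markers held 1 gene that rose, GDF3 (1.96, adjusted p = 1.8e-05), and 2 that fell, USP44 (−2.04, adjusted p = 2.9e-05) and TERF1 (−1.81, adjusted p = 9.6e-07). Of the tested neuroectoderm markers 4 of 8 rose and 2 fell, with a median log2 fold change of 1.24. Those that rose included ZIC1 (3.32, adjusted p = 0.000233), LHX2 (2.35, adjusted p = 0.00353) and POU3F2 (1.85, adjusted p = 0.0218). In WT ZIC1 had 3 and 6 counts, LHX2 had 6 and 3, and POU3F2 had 8 and 4. ZIC1, LHX2 and POU3F2 passed the filter only through the knockout libraries, and their counts were low there too. With at least 10 counts in every library, 3 neuroectoderm markers were called. The adjusted p of POU3F2 was 0.0593 without WT replicate 1 and 0.176 without WT replicate 2. OTX2 fell (−1.26, adjusted p = 2.5e-06). Of 10 amnion and surface ectoderm markers 8 were tested, and 6 rose and 0 fell, with TFAP2A at a log2 fold change of 5.47 (adjusted p = 7.1e-07). Against WT, clone 1 alone had 6 higher and 0 lower, and clone 2 had 6 higher and 1 lower. In WT TFAP2A had 6 and 5 counts, and TFAP2B had 0 and 0. Both passed the filter only through the knockout libraries, where they are high. With at least 10 counts in every library, 3 amnion and surface ectoderm markers were called.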
